A study of Mus musculus with 6 samples.

Results

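The 46 genes described here encode the SMC complexes that shape mouse chromosomes (cohesin, condensin I and II, and SMC5/6), the anaphase-promoting complex (APC/C) and the proteins that load, protect, cut or regulate them. They were chosen by name, and all 46 were found among the 22380 genes of the series. Each averaged 10 or more normalized counts over the 6 lines, and all 46 were therefore among the 10524 genes tested. RNA-Seq was performed on 6 mouse embryonic stem cell (mESC) lines, 3 *Ctrl* and 3 *Tet iTKO*, each derived from a different embryo. The *Ctrl* lines carried the tamoxifen-inducible Cre-ERT2 recombinase, expressed from the human ubiquitin C promoter, and a *Rosa26* reporter in which Cre removes a stop cassette in front of H2B-EGFP. The *Tet iTKO* lines carried the same alleles together with floxed *Tet1*, *Tet2* and *Tet3*, whose products oxidize methylated cytosine. Lines of both genotypes received 1 µM 4-hydroxytamoxifen (4-OHT, tamoxifen in the labels) for 2.5 days and grew for another 4 days without it. Exposure to the drug and to Cre was therefore shared, and deletion of the *Tet* genes was not. The paper's methods also name different mouse substrains for the floxed alleles and for the matings that gave the *Ctrl* embryos. No untreated line was among the 6, so effects of line, floxed alleles or substrain cannot be told apart from those of the deletion. Cells grew in 2i medium on inactivated mouse embryonic fibroblast feeders, and live CD326+ EGFP+ Thy1.2- cells were sorted at day 6.5. Chromosome segregation after TET loss was the subject of the study, and the comparison below asks how the transcripts of this machinery differed between the genotypes.

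Cohesin is a ring that holds sister chromatids together from replication until anaphase and also extrudes chromatin loops in interphase. Condensin compacts chromosomes for mitosis, and SMC5/6 acts in DNA repair and in the handling of replication intermediates. The APC/C is the ubiquitin ligase that starts anaphase: with CDC20 it marks securin and cyclin B for destruction, which frees separase to cut the cohesin ring, and with FZR1 (also called CDH1) it keeps mitotic proteins low from late mitosis through G1. Embryonic stem cells divide rapidly with a short G1, and transcripts of most of these genes are abundant in them.

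The libraries summed to between 3964824 and 4219665 normalized counts, of which the 46 genes took 0.636% to 0.653% in each line. Whole-gene values cannot set the floxed exons apart from the rest of a *Tet* transcript. *Tet1* ran from 682 to 716 in *Ctrl* and from 753 to 895 in *Tet iTKO* lines, *Tet2* from 170 to 249 and from 211 to 268, and *Tet3* from 13 to 28 and from 3 to 10. Markers of mESC were expressed in all 6 lines, with summed levels of 22432 to 23010 in *Ctrl* and 18803 to 19749 in *Tet iTKO* lines, except *Fut4*, which had a mean of 1.0 and 0.667. Of 12 feeder fibroblast markers 5 were high enough to be tested, and 3 of them rose (*Col1a1*, *Col1a2* and *Col3a1*), where 16.4% of all genes tested did. The 12 markers summed to between 333 and 346 in *Ctrl* against 551 to 609 in *Tet iTKO* lines. The same 3 were higher after the correction for length and GC content described below. The other tested markers, *Thy1*, the marker of the negative sort, and *Acta2*, were at log2 fold changes of -0.19 and -0.11 and did not pass. Of the 7 untested markers, *Fbn1* had means of 1.67 and 10.3 without overlap and *Col6a1* of 4.33 and 12.7 with overlap, and *Dcn*, *Lum*, *Postn*, *Pdgfrb* and *Twist1* stayed below a mean of 10 in both groups. The part of feeder RNA in the differences below was not tested. Fewer cells in a given cell cycle phase and less RNA per cell cannot be told apart in bulk RNA.

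Most of this machinery did not pass the test between the genotypes, and neither did most of all genes tested. The comparison used limma on log2(normalized count + 1), and a gene was called at an adjusted p under 0.05. Of the 46 genes, 3 were higher in *Tet iTKO* (*Espl1*, *Ncapd2* and *Anapc5*), 12 were lower (*Wapl*, *Esco2*, *Pttg1*, *Ncaph2*, *Nsmce1*, *Anapc10*, *Anapc11*, *Cdc16*, *Cdc23*, *Cdc26*, *Cdc20* and *Fzr1*) and 31 did not pass. Higher calls made up 6.52% of the 46 against 16.4% of all genes tested, and lower calls 26.1% against 18.4%. The median log2 fold change was -0.06 over the 46 genes and 0.01 over all genes tested. Among the 15 called genes, 11 moved by less than 0.5 in log2, a share that was not counted over all genes. *Nsmce1* alone fell by 1 or more, which 1.3% of all genes tested did. The groups did not overlap for 15 of the 46 genes, against 44.1% of all genes tested. Those 15 were 14 of the called genes, all but *Wapl*, and *Anapc7*, which did not pass the test.

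**Figure D1:**
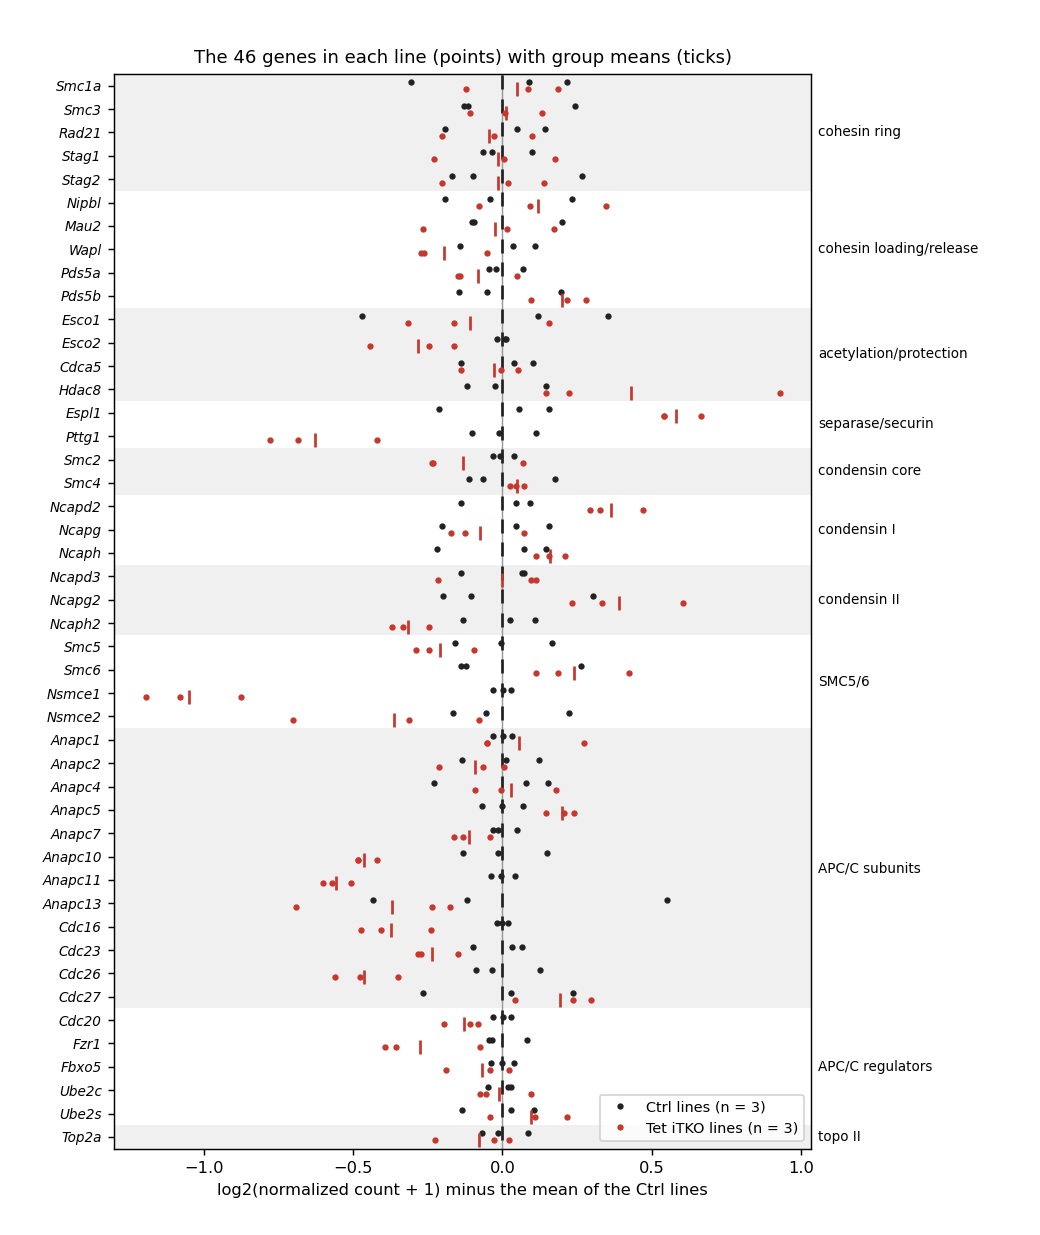
Each of the 46 genes in each line, as log2(normalized count + 1) minus the mean of the 3 *Ctrl* lines (black, *Ctrl* lines; red, *Tet iTKO* lines; ticks, group means), grouped by complex. The *Tet iTKO* points of *Nsmce1* lie farthest to the left, and those of *Espl1* and *Ncapd2* lie to the right of all *Ctrl* points.

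Transcript length needs to be read beside these values. Over 10457 genes with an annotated length, the log2 fold change was correlated with transcript length (Spearman's rho 0.34) and with GC content (rho 0.26), values taken across genes of the same 6 libraries and given as a description. The median log2 fold change rose from -0.34 in the shortest of 10 length classes of equal size to 0.23 in the longest. Over the 46 genes rho was 0.49 with length and -0.07 with GC content. *Pttg1* and *Cdc26*, both lower, have median transcripts of 720.5 and 736.5 bases, and *Espl1*, the gene that rose most, has one of 6646 bases. Each called gene is therefore also given after a correction that removed, within each library, the smooth trend on GC content and length. After it, 3 of the 46 genes were higher (*Smc6*, *Anapc5* and *Cdc27*) and 7 lower (*Ncaph2*, *Nsmce1*, *Anapc2*, *Anapc11*, *Cdc16*, *Cdc23* and *Fzr1*), against 12.3% and 13.6% of all genes tested. Of the 15 calls, 7 held in the same direction, 1 of the 3 higher and 6 of the 12 lower.

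**Figure D2:**
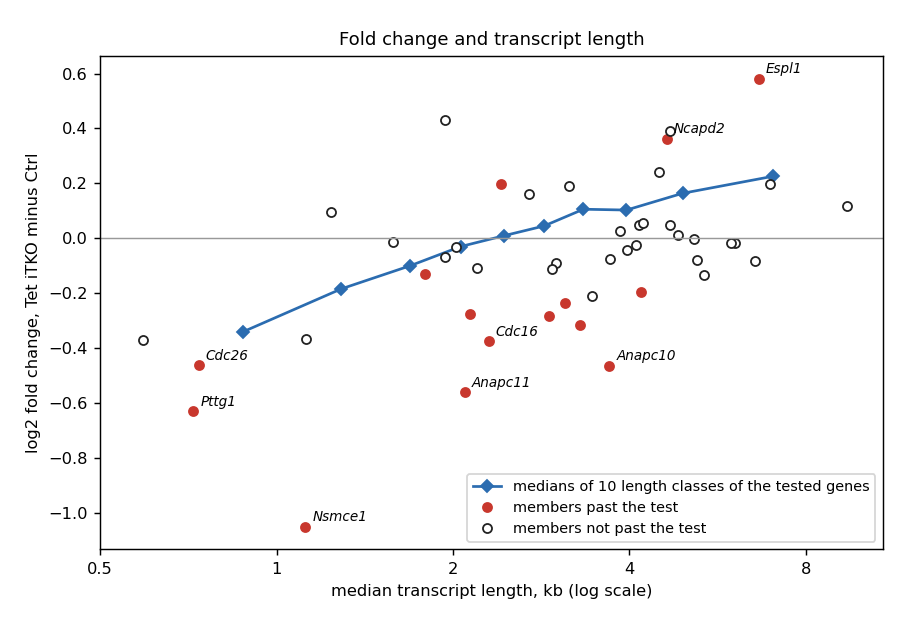
Log2 fold change (*Tet iTKO* minus *Ctrl*) of the 46 genes against the median length of their protein-coding transcripts in kb on a log scale (red, past the test; open, not past it), with the median fold change of each of 10 length classes of the tested genes (blue diamonds). The blue line climbs from -0.34 to 0.23, and *Nsmce1* and *Anapc11* lie well below it.

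**Figure D3:**
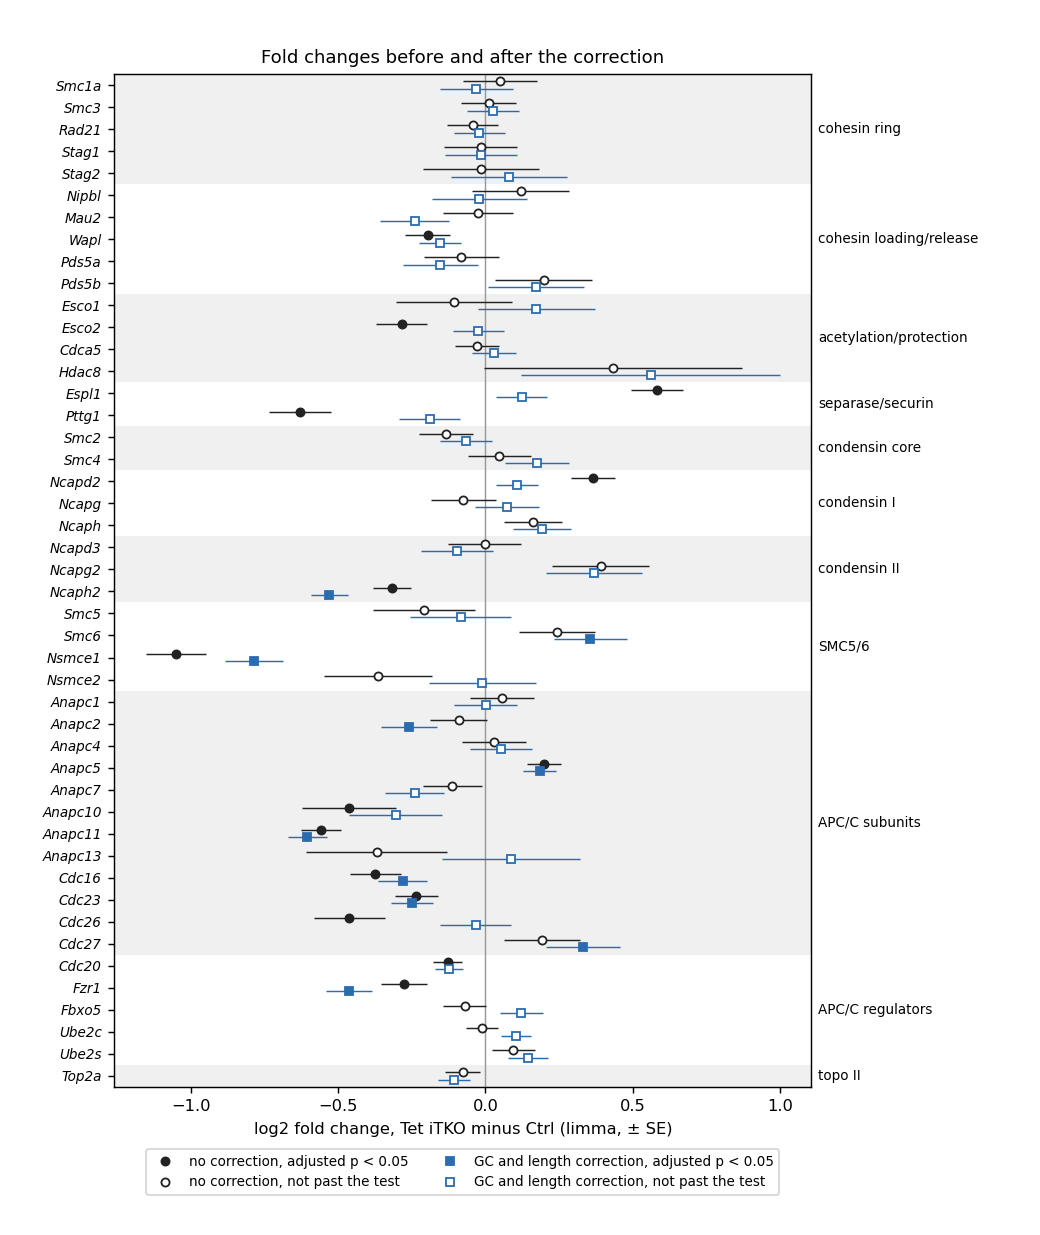
Limma log2 fold change with its SE for each gene without the correction (black circles) and with it (blue squares), filled where the adjusted p was under 0.05. *Espl1*, *Pttg1*, *Ncapd2*, *Esco2* and *Cdc26* move toward 0 with the correction, whereas *Nsmce1*, *Anapc11* and *Ncaph2* keep their fall.

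Many genes of mitosis carry the letters TTTGAA of the cell cycle homology region (CHR), through which the DREAM and MuvB complexes time transcription, close to their start site. Promoter windows of RefSeq (250 bases before to 50 after the start site, GRCm38.p6) matched 38 of the 46 genes. The letters TTTGAA, searched on both strands, occurred in 34.9% of the 43 windows of these genes and in 17.9% of the 32851 windows of all genes. E2F letters (TTTCCCGC or TTTGGCGC, both strands) occurred in 16.3% and 1.56% of the same windows. A match is a description of the sequence and not evidence of binding. In 8 genes the CHR letters lay within the last 50 bases before the start site, as they did in 2.63% of all windows. These 8 stretches are shown because the genes share this element and include both a higher and a lower call. Each ends at the base before the start site, reads 5′ to 3′ along the gene and has the CHR letters, on either strand, in capitals.
*Ube2c*: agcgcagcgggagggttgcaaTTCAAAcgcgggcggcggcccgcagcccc
*Cdc20*: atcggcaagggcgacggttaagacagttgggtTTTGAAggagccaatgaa
*Top2a*: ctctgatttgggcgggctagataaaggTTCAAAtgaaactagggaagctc
*Espl1*: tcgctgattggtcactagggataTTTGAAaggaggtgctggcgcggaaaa
*Cdca5*: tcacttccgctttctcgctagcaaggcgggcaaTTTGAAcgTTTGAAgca
*Ncapg*: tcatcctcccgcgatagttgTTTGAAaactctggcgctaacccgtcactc
*Ncapg2*: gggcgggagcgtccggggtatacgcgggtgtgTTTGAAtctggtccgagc
*Pds5b*: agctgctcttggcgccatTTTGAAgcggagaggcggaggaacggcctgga

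The stretches lie at chr2:164769879-164769928 (*Ube2c*, + strand), chr4:118437344-118437393 (*Cdc20*, - strand), chr11:99024190-99024239 (*Top2a*, - strand), chr15:102296243-102296292 (*Espl1*, + strand), chr19:6085047-6085096 (*Cdca5*, + strand), chr5:45669875-45669924 (*Ncapg*, + strand), chr12:116405386-116405435 (*Ncapg2*, + strand) and chr5:150673777-150673826 (*Pds5b*, + strand). Of these 8 genes *Espl1* was higher and *Cdc20* lower in *Tet iTKO* lines, where 16.4% and 18.4% of all genes tested were. The other 6 did not pass the test, with log2 fold changes from -0.08 in *Top2a* and *Ncapg* to 0.39 in *Ncapg2*.

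Of the 5 genes of the cohesin ring, 0 passed the test, while 16.4% of all genes tested were higher and 18.4% lower. *Rad21*, which encodes the kleisin that closes the ring and is cut by separase, had 655, 554 and 698 normalized counts in *Ctrl* against 621, 550 and 677 in *Tet iTKO* lines. *Smc3*, one of the 2 ATPase arms, had 625, 483 and 487 against 531, 579 and 489. The values of the genotypes were interleaved in both genes. The log2 fold changes of *Smc1a*, *Smc3*, *Rad21*, *Stag1* and *Stag2* ran from -0.04 to 0.05, with SE between 0.09 and 0.20, the widest in *Stag2*, which had only 77 to 107 normalized counts per line. *Stag1* and *Stag2* encode alternative versions of a further subunit, and *Smc1a*, *Stag2* and *Hdac8* are X-linked. None of these 3 X-linked genes passed the test, before or after the correction.

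Of the 5 genes that load cohesin or release it, *Wapl*, the release factor, was lower. It had 1009, 958 and 848 normalized counts in *Ctrl* against 903, 780 and 774 in *Tet iTKO* lines. The groups overlapped, since *Tet iTKO* line 1 lay above *Ctrl* line 3. Means were 938 ± 82.3 and 819 ± 72.8 (SD, n = 3 each), a log2 fold change of -0.20 (SE 0.08, limma adjusted p = 0.041), and -0.15 (adjusted p = 0.11) after the correction. With the longest transcript in the correction it was -0.21 (adjusted p = 0.026). Its call was lost under quantile normalization (-0.10, adjusted p = 0.33) and without *Ctrl* line 1 (adjusted p = 0.19), *Ctrl* line 2 (0.13), *Tet iTKO* line 2 (0.15) or *Tet iTKO* line 3 (0.18). The loader genes *Nipbl* and *Mau2* had log2 fold changes of 0.12 and -0.03, and *Pds5a* and *Pds5b*, whose products act with WAPL and with the acetyltransferases, of -0.08 and 0.20. None of these 4 passed.

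Among the genes that acetylate and protect cohesin, *Esco2*, the acetyltransferase that establishes cohesion in S phase, was lower. Its *Ctrl* lines were very close to each other at 567, 556 and 568 normalized counts, and the *Tet iTKO* lines lay below them at 475, 414 and 504. The means were 564 ± 6.66 and 464 ± 45.9 (SD, n = 3 each), a log2 fold change of -0.28 (SE 0.09, limma adjusted p = 0.0098). After the correction the value was -0.02 (adjusted p = 0.87), without *Tet iTKO* line 2 it was -0.20 (adjusted p = 0.11), and under quantile normalization -0.20 (adjusted p = 0.07). *Esco1*, which acetylates cohesin outside S phase, had a log2 fold change of -0.11, *Cdca5* (sororin, which keeps WAPL off the ring) of -0.03 and *Hdac8*, the deacetylase that recycles SMC3, of 0.43. *Hdac8* was the lowest gene of the 46, with 14 to 30 normalized counts per line and an SE of 0.44, so a difference of this size was not detectable at this depth.

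Separase and its inhibitor moved in opposite directions. *Espl1*, which encodes separase, rose from 391, 471 and 504 normalized counts in *Ctrl* to 718, 659 and 659 in *Tet iTKO* lines. All 3 *Tet iTKO* lines lay above every *Ctrl* line, with means of 455 ± 58.1 and 679 ± 34.1 (SD, n = 3 each) and a log2 fold change of 0.58 (SE 0.09, limma adjusted p = 2.2e-06). *Pttg1*, which encodes securin, the inhibitor and chaperone of separase, fell from 471, 432 and 405 to 270, 253 and 325. Again the groups did not overlap, and the means of 436 ± 33.2 and 283 ± 37.6 gave a log2 fold change of -0.63 (SE 0.10, adjusted p = 9.7e-06). Both calls held without any 1 line, and neither held after the correction, where *Espl1* was at 0.12 (adjusted p = 0.32) and *Pttg1* at -0.19 (adjusted p = 0.18). With the longest transcript in place of the median one, *Pttg1* kept its call (-0.38, adjusted p = 0.0052). The 2 genes lie near the opposite ends of the length range of the 46.

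The condensin genes gave 1 higher and 1 lower call among 8, 12.5% each way against 16.4% and 18.4% of all genes tested. *Ncapd2*, a HEAT-repeat subunit of condensin I, rose from 765, 674 and 791 normalized counts in *Ctrl* to 909, 930 and 1028 in *Tet iTKO* lines. The groups did not overlap, and the means were 743 ± 61.4 and 956 ± 63.5 (SD, n = 3 each), a log2 fold change of 0.36 (SE 0.07, limma adjusted p = 0.00019). It was 0.11 (adjusted p = 0.30) after the correction. *Ncaph2*, the kleisin of condensin II, fell from 1292, 1527 and 1441 to 1097, 1193 and 1123, again without overlap. Its means were 1420 ± 119 and 1138 ± 49.7, a log2 fold change of -0.32 (SE 0.07, adjusted p = 0.0002), and the correction made the fall larger, at -0.53 (adjusted p = 2.9e-08). The shared arms *Smc2* and *Smc4* had log2 fold changes of -0.13 and 0.05, and the condensin I genes *Ncapg* and *Ncaph* of -0.08 and 0.16. In condensin II *Ncapd3* was at -0.0024 and *Ncapg2* at 0.39 (adjusted p = 0.062). *Ncapg2* had 109, 102 and 145 normalized counts in *Ctrl* against 179, 148 and 138 in *Tet iTKO* lines, and it passed the test when *Ctrl* line 3 was left out (log2 fold change 0.54, adjusted p = 0.016).

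The largest change of the 46 genes was in SMC5/6. *Nsmce1*, which encodes the RING-finger subunit of that complex, had 508, 487 and 499 normalized counts in *Ctrl* against 217, 271 and 235 in *Tet iTKO* lines. Each *Tet iTKO* line was far below every *Ctrl* line, and the *Tet iTKO* mean was 48.4% of the *Ctrl* mean. The means of 498 ± 10.5 and 241 ± 27.5 (SD, n = 3 each) gave a log2 fold change of -1.05 (SE 0.10, limma adjusted p = 2.2e-10). The fall was -0.79 (adjusted p = 1.4e-07) after the correction and between -1.14 and -0.98 when single lines were left out. The arms *Smc5* and *Smc6* had log2 fold changes of -0.21 and 0.24, and *Nsmce2*, the SUMO ligase of the complex, of -0.37, none past the test. *Smc6* was called higher after the correction (0.36, adjusted p = 0.031), though not with the longest transcript in it (0.28, adjusted p = 0.1). Of the other parts of SMC5/6 that were tested, *Nsmce4a*, which encodes the kleisin, was lower (-0.36, adjusted p = 4.8e-05, -0.17 with adjusted p = 0.059 after the correction), and *Nsmce3*, *Slf1* and *Slf2* had log2 fold changes of -0.01, -0.19 and -0.27 and did not pass.

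As the gene with the largest fall, *Nsmce1* is shown with the 250 bases before 1 of its 2 annotated start sites, the one with E2F letters (GRCm38.p6, chr7:125491444-125491693, - strand), read 5′ to 3′ along the gene. The stretch holds 30 CpG dinucleotides, the substrate of TET enzymes when methylated, and no CHR letters. Its full window of 300 bases holds 35, against a median of 7 over the windows of all genes. Such numbers were not particular to *Nsmce1*. Windows of genes that did not pass the test hold 55 (*Pds5a*), 43 (*Stag1*), 21 (*Smc2*) and 6 (*Smc5*), for example. The 250 bases before the other start site (chr7:125487960-125488209, - strand) hold 0 CpG and neither kind of letters, and the values cannot tell which start site was in use. The capitals mark E2F letters on the opposite strand. DNA methylation was not analysed here.
*Nsmce1*: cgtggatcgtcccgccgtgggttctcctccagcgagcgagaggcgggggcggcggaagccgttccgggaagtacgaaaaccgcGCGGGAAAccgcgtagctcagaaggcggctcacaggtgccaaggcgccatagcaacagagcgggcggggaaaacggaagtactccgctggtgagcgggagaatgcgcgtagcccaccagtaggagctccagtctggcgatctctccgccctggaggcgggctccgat

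Among the 12 APC/C subunits measured, 5 were lower, 1 was higher and 6 did not pass, with a median log2 fold change of -0.17. Lower calls made up 41.7% and higher calls 8.33%, against 18.4% and 16.4% of all genes tested, and after the correction 4 were lower and 2 higher, where 13.6% and 12.3% of all genes were. *Anapc11*, the RING subunit that binds the ubiquitin-carrying enzyme, changed most. It had 1107, 1081 and 1142 normalized counts in *Ctrl* against 781, 747 and 731 in *Tet iTKO* lines. The groups were widely apart, with means of 1110 ± 30.6 and 753 ± 25.5 (SD, n = 3 each) and a log2 fold change of -0.56 (SE 0.07, limma adjusted p = 2.7e-08), and the value was -0.61 (adjusted p = 7.1e-09) after the correction. *Cdc16*, a TPR-repeat subunit of the arc that binds coactivators, fell from 585, 577 and 570 to 489, 415 and 435. It did so without overlap, with means of 577 ± 7.51 and 446 ± 38.3 and a log2 fold change of -0.37 (SE 0.09, adjusted p = 0.00074), and -0.28 (adjusted p = 0.011) after the correction.

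*Cdc26*, a small subunit that stabilizes CDC16, fell from 254, 264 and 295 normalized counts in *Ctrl* to 212, 183 and 194 in *Tet iTKO* lines. The groups did not overlap, and the means of 271 ± 21.4 and 196 ± 14.6 (SD, n = 3 each) gave a log2 fold change of -0.46 (SE 0.12, limma adjusted p = 0.0025). After the correction it was -0.03 (adjusted p = 0.87). *Anapc5*, a scaffold subunit, was the 1 subunit that rose, from 1385, 1524 and 1449 to 1676, 1716 and 1608. All *Tet iTKO* lines were above the *Ctrl* lines, the means were 1453 ± 69.6 and 1667 ± 54.6, and the log2 fold change was 0.20 (SE 0.06, adjusted p = 0.0073) before the correction and 0.18 (adjusted p = 0.015) after it. *Cdc23* and *Anapc10* were lower as well, with log2 fold changes of -0.23 (adjusted p = 0.012) and -0.46 (adjusted p = 0.021). *Cdc23* encodes another TPR subunit, and ANAPC10 helps to bind substrates. *Cdc23* kept its call after the correction (-0.25, adjusted p = 0.0089) and *Anapc10* did not (-0.30, adjusted p = 0.16). *Cdc23* lost the call under quantile normalization (-0.14, adjusted p = 0.15) and without *Ctrl* line 2 (adjusted p = 0.068) or *Tet iTKO* line 3 (0.057), and *Anapc10* without *Ctrl* line 2 (0.099), *Tet iTKO* line 2 (0.058) or *Tet iTKO* line 3 (0.054).

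The 6 subunit genes that did not pass were *Anapc1*, *Anapc2*, *Anapc4*, *Anapc7*, *Anapc13* and *Cdc27*, with log2 fold changes of 0.06, -0.09, 0.03, -0.11, -0.37 and 0.19. *Anapc2*, the cullin of the complex, was called lower (-0.26, adjusted p = 0.042) and *Cdc27*, a further TPR subunit, higher (0.33, adjusted p = 0.047) after the correction alone. With the longest transcript in the correction neither passed (-0.23 and 0.25, adjusted p = 0.071 and 0.14), nor did *Cdc27* by least squares (adjusted p = 0.062). *Anapc15* and *Anapc16*, small subunits outside the 46, were at -0.31 each and did not pass (adjusted p = 0.15 and 0.11). Smart-Seq2 libraries keep no strand, so reads from a stretch shared by genes on opposite strands cannot be assigned to either gene. The annotated span of *Cdc23* overlaps that of *Kif20a*, which had a like level (means of 786 and 760.5 normalized counts over the 6 lines). *Cdc26* and *Slc31a1* (234 and 180), *Anapc13* and *Cep63* (74.3 and 62.5) and *Ube2s* and *Rpl28* (1030 and 1780) overlap in the same way. How much of these overlaps lies in exons was not computed.

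Both coactivators of the APC/C were lower, calls that quantile normalization ended. *Fzr1* had 830, 835 and 906 normalized counts in *Ctrl* against 812, 651 and 668 in *Tet iTKO* lines. The groups did not overlap, although *Tet iTKO* line 1 came close to the *Ctrl* lines. The means of 857 ± 42.5 and 710 ± 88.5 (SD, n = 3 each) gave a log2 fold change of -0.28 (SE 0.08, limma adjusted p = 0.0057), which was -0.46 (adjusted p = 2e-05) after the correction and -0.22 (adjusted p = 0.056) without *Tet iTKO* line 2. It was -0.17 (adjusted p = 0.086) under quantile normalization. *Cdc20*, the most abundant of the 46 genes per length, had 2912, 2965 and 2845 against 2698, 2535 and 2747. This was a narrow separation, with means of 2907 ± 60.1 and 2660 ± 111 and a log2 fold change of -0.13 (SE 0.05, adjusted p = 0.041), which reversed to 0.01 (adjusted p = 0.88) under quantile normalization. The call was also lost after the correction (-0.12, adjusted p = 0.053) and without *Ctrl* line 1 (adjusted p = 0.065), *Ctrl* line 2 (0.14), *Tet iTKO* line 1 (0.055) or *Tet iTKO* line 2 (0.22).

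The inhibitor *Fbxo5* (EMI1) and the ubiquitin-conjugating enzymes *Ube2c*, which starts the chain on APC/C substrates, and *Ube2s*, which extends it, did not pass, with log2 fold changes of -0.07, -0.01 and 0.09. *Top2a*, the topoisomerase that untangles sister chromatids, had 2330, 2174 and 2094 normalized counts in *Ctrl* against 2229, 2156 and 1878 in *Tet iTKO* lines. Its groups overlapped (log2 fold change -0.08, adjusted p = 0.33).

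Levels of different genes were compared per kb of the median transcript. In *Ctrl* lines *Cdc20* stood highest, at 1621 ± 33.5 normalized counts per kb (SD, n = 3), followed by *Ube2c* at 1477 ± 42.3 and *Ube2s* at 805 ± 67.5. *Pttg1* came next, at 605 ± 46.1, and did not differ from *Anapc5*, at 602 ± 28.8, beyond their spread. *Hdac8* was lowest, at 7.92 ± 0.79, with *Nipbl*, *Stag2* and *Pds5b* next above it at 13.4 ± 2.06, 15.1 ± 2.54 and 16.6 ± 2.10, levels within each other's spread. The ring genes were unequal, from 161 ± 18.7 in *Rad21* and 110 ± 16.7 in *Smc3* to 38.6 ± 2.38 in *Stag1* and 15.1 ± 2.54 in *Stag2*. In *Tet iTKO* lines the same 3 genes stood first, with *Cdc20* (1484 ± 61.9) and *Ube2c* (1466 ± 95.9) within each other's spread. *Pttg1* moved from rank 4 to rank 8 and *Nsmce1* from rank 7 to rank 14 of 46, while *Espl1* moved from rank 33 to rank 25. These levels depend on which transcript length is taken, and 3 values per group limit their precision.

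**Figure D4:**
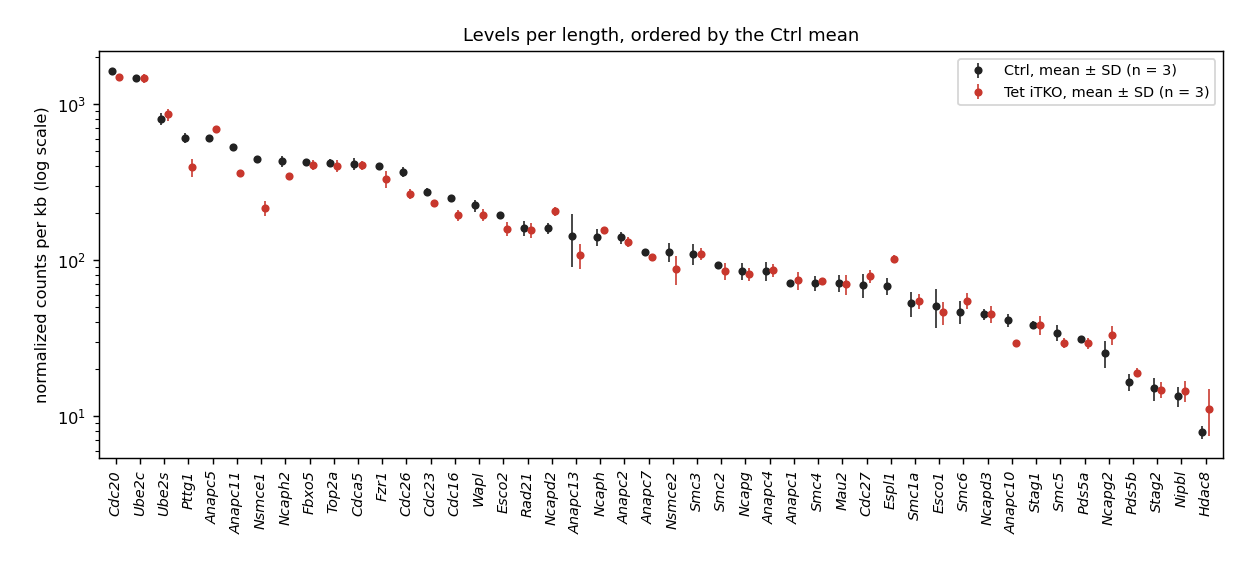
Normalized counts per kb of median transcript length (log scale), mean ± SD of 3 lines, for the 46 genes in the order of the *Ctrl* mean (black, *Ctrl*; red, *Tet iTKO*). The values span from about 1621 in *Cdc20* to 7.92 in *Hdac8*, and the largest gap between the colours is at *Nsmce1*.

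Ratios of paralogs and partners within a line do not depend on the size factor of its library. Of 12 ratios compared, 5 did not overlap between the groups. Among all single genes tested, an unlike measure, 44.1% did not, and no such share was computed over ratios. With 3 lines against 3, an exact two-sided permutation test cannot go below p = 0.1, and the smallest value adjusted over the 12 ratios was 0.24, so none passed. *Pttg1*/*Espl1* shifted most. Its log2 ratios of normalized counts, not taken per length, were 0.27, -0.12 and -0.31 in *Ctrl* and -1.41, -1.38 and -1.02 in *Tet iTKO* lines. The groups differed by -1.21 (exact permutation p = 0.1), and after the correction the difference was -0.31 and the groups overlapped. Only the shift between the groups can be read from this ratio. Per kb of transcript, mean *Pttg1* stood above mean *Espl1* in both genotypes, at 605 against 68.5 in *Ctrl* and 392 against 102 in *Tet iTKO* lines.

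*Ncaph*/*Ncaph2*, the kleisins of condensin I and II, had log2 ratios of -1.63, -2.23 and -1.86 in *Ctrl* and -1.38, -1.55 and -1.36 in *Tet iTKO* lines. The difference was 0.48, toward condensin I, and 0.72 after the correction, again without overlap. *Ncapg*/*Ncapg2* moved the other way, with 1.57, 1.42 and 1.27 against 0.89, 0.96 and 1.02. That difference was -0.47, and -0.29 without overlap after the correction. *Ncapd2*/*Ncapd3* differed by 0.37 and *Wapl*/*Cdca5* by -0.17, both without overlap. After the correction *Ncapd2*/*Ncapd3* overlapped (0.20), *Wapl*/*Cdca5* did not (-0.18), and *Cdc20*/*Fzr1* no longer overlapped (0.34), which made 4 ratios in all.

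In the other 7 ratios the groups overlapped. *Stag1*/*Stag2* had a mean log2 ratio of 1.38 in both genotypes, with an SD of 0.15 in *Ctrl* and 0.32 in *Tet iTKO* lines. The differences were 0.04 for *Smc1a*/*Smc3*, -0.28 for *Pds5a*/*Pds5b*, 0.15 for *Nipbl*/*Mau2*, 0.18 for *Esco1*/*Esco2*, 0.15 for *Cdc20*/*Fzr1* and -0.11 for *Ube2c*/*Ube2s*. Without *Tet iTKO* line 1 the count of ratios without overlap was 8, though leaving out a line can only keep or raise this count.

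**Figure D5:**
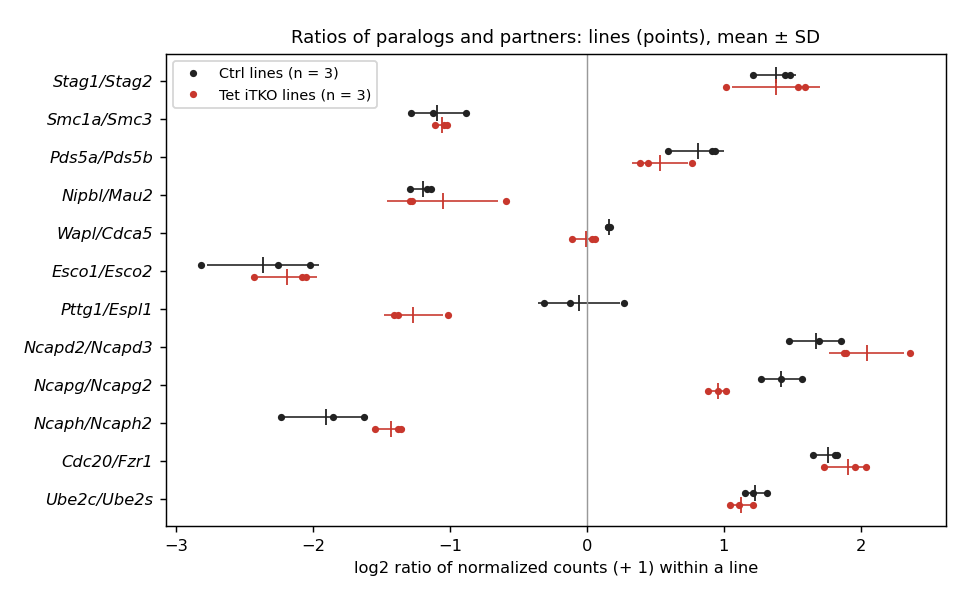
Log2 ratio of the normalized counts (+ 1) of each pair of genes in each line (black, *Ctrl*; red, *Tet iTKO*), with the mean ± SD of 3 lines. Black and red points are apart for *Pttg1*/*Espl1*, *Ncapg*/*Ncapg2*, *Ncaph*/*Ncaph2*, *Ncapd2*/*Ncapd3* and *Wapl*/*Cdca5*.

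Of 11 genes whose products work with cohesin, 1 was higher and 2 were lower, 9.09% and 18.2% against 16.4% and 18.4% of all genes tested. *Chtf8* rose, from 486, 584 and 536 normalized counts in *Ctrl* to 784, 695 and 735 in *Tet iTKO* lines (log2 fold change 0.46, adjusted p = 2.4e-05). *Dscc1*, which belongs with *Chtf8* to the alternative clamp loader that promotes cohesion at forks, fell from 128, 136 and 140 to 85, 82 and 81 (-0.70, adjusted p = 0.0017). These partners of 1 complex differed in direction. *Ppp2r5c*, a regulatory subunit of the phosphatase PP2A, fell from 480, 455 and 448 to 328, 346 and 365 (-0.41, adjusted p = 0.00059). The other 8 did not pass, *Ctcf*, which halts cohesin on chromatin, at -0.10 and *Sgo1*, which shields cohesin at centromeres, at -0.25 (adjusted p = 0.056). After the correction *Chtf8* and *Ppp2r5c* kept their calls (0.50 and -0.30, adjusted p = 7.4e-06 and 0.014) and *Dscc1* did not (-0.44, adjusted p = 0.053). *Chtf18*, which encodes a further part of that clamp loader, was called lower (-0.38, adjusted p = 0.00051) and *Tipin*, a fork protection factor, higher (0.19, adjusted p = 0.027) after the correction alone.

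Of 4 genes of meiotic cohesin, 2 were high enough to be tested, and 1 was higher and 1 lower. Over all genes tested 16.4% were higher and 18.4% lower. *Rec8*, the meiotic kleisin, rose from 31, 29 and 24 normalized counts in *Ctrl* to 57, 71 and 60 in *Tet iTKO* lines (log2 fold change 1.14, SE 0.29, adjusted p = 0.0018). *Stag3*, its partner, fell from 121, 101 and 113 to 47, 74 and 67 (-0.84, SE 0.21, adjusted p = 0.0015). Neither gene's groups overlapped, and both calls held after the correction (1.03 and -0.97, adjusted p = 0.0064 and 0.0005). *Smc1b*, at 6, 17 and 15 against 4, 2 and 6, was too low to be tested, and *Rad21l* was listed at 0 in every line.

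Substrates that the APC/C marks for destruction gave 4 higher and 4 lower calls among 19, which is 21.1% each way against 16.4% and 18.4% of all genes tested. Their summed level ran from 17147 to 17531 in *Ctrl* and from 17098 to 17142 in *Tet iTKO* lines. *Ccnb1*, the cyclin that drives mitosis, fell from 1746, 1737 and 1591 normalized counts to 1342, 1221 and 1258 (log2 fold change -0.41, adjusted p = 1.4e-06). *Ccnb2* fell from 1055, 937 and 958 to 716, 693 and 713 (-0.47, adjusted p = 1.8e-06), and *Gmnn*, geminin, which blocks relicensing of replication, from 913, 915 and 915 to 646, 634 and 696 (-0.47, adjusted p = 2.1e-06). In each of the 3 genes all *Tet iTKO* lines lay below the *Ctrl* lines. After the correction 1 of the 19 was higher and 3 were lower, *Ccnb1* (-0.23, adjusted p = 0.002) and *Ccnb2* (-0.28, adjusted p = 0.0025) among them, while *Gmnn* was at -0.13 (adjusted p = 0.19).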

How the data were processed

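RNA-Seq was performed on bulk RNA of 3 *Ctrl* and 3 *Tet iTKO* lines. The authors sorted the cells, prepared Smart-Seq2 libraries, sequenced pairs of 50 bases, kept unique STAR alignments, counted reads per gene with HTSeq in its stranded mode, although Smart-Seq2 keeps no strand, and divided by DESeq2 size factors. The submitters' processing notes name mm9, HTSeq 0.7.1, R 3.5.2 and DESeq2 1.26.0. The deposited values are handled as a score, since they are normalized counts rounded to whole numbers and not read counts, so no count model was fitted. The libraries hold no molecular identifiers, so PCR copies were counted as reads.

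Genes with a mean of at least 10 were compared on log2(value + 1) with the limma package (version 3.58.1, R 4.3.3; eBayes with trend after lmFit) and Benjamini-Hochberg adjustment over 10524 genes. A fold change on this scale understates that of low genes. Differences are *Tet iTKO* minus *Ctrl*. The correction fitted, in each library, a robust loess surface (span 0.3) to deviations from the gene mean, on GC content and log2 length, and subtracted it. Lengths and GC are medians over the protein-coding transcripts of GENCODE M21, matched by Ensembl gene ID (20775 of 22380 IDs had a symbol), and 67 tested genes without them stayed uncorrected. The robust form was chosen after a least-squares fit had shifted the median of all genes. Ratios were compared with exact permutation tests. Other steps ran in Python 3.11.15 (SciPy 1.17.1, NumPy 2.4.6, pandas 2.3.3 and, for plots, Matplotlib 3.10.9). Promoter coordinates are of GRCm38.p6, and no coordinates of the mm9 build were used.

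The members, their grouping, the ratios and the lists were chosen with earlier results of these data known. All 46 genes are accounted for. Genes past the test have full values, and where a complex had more than 4 of these, the 4 with the lowest adjusted p do. Of other lists at most the 3 with the lowest adjusted p are named with values, plus *Nsmce3*, *Slf1*, *Slf2*, *Anapc15*, *Anapc16*, *Ctcf*, *Sgo1*, *Chtf18*, *Tipin*, *Smc1b*, *Rad21l*, *Tfcp2l1*, *Esrrb* and the feeder markers, named after their values were seen. Replicate numbers did not pair the lines. The search of the encoded proteins for APC/C recognition motifs was not run.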

Additional observations from a re-analysis of the deposited data

How the results depend on the processing

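The counts of 3 higher and 12 lower genes stayed within 1.5 times of themselves with pseudocounts of 0.5 and 4. The same held for filters of a mean above 0 (10 lower) and of at least 50. It held for rescaling by the trimmed mean of M values too. Leaving out the X-linked genes could not change the counts, since none of these genes was called. Lower genes numbered 7 under quantile normalization, 6 without the variance trend (1 higher) and 7 after the GC and length correction (3 higher). Quantile normalization ended the calls of *Wapl*, *Esco2*, *Cdc23*, *Cdc20* and *Fzr1*, and the fit without the trend ended these and those of *Ncaph2*, *Ncapd2* and *Anapc5*. An absolute log2 fold change of at least 1 left 0 higher and 1 lower. Leaving out single lines gave 7 to 12 lower and 3 to 4 higher genes, with 7 lower without *Tet iTKO* replicate 2. Of the 15 calls, 9 held in every such fit. The ratios without overlap numbered 5 to 8, with 8 without *Tet iTKO* replicate 1. Leaving out a line can only keep or raise that number, so it does not measure stability. Over all genes, 1731 were higher and 1934 lower, and 1294 and 1427 after the correction. Further forms of the correction were added after seeing the data. With the longest transcript 2 genes were higher and 8 lower, and by least squares 1 was higher and 11 lower (all genes, 990 higher and 2016 lower). *Anapc5* was not called by least squares (0.11, adjusted p = 0.15). Signs reversed for *Cdc20* under quantile normalization (0.0117), for *Esco2* with the longest transcript (0.0102) and for *Espl1* by least squares (-0.0101). The cause was not tested.

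Lines with the same replicate number did not deviate together (correlations of 0.000706, -0.00543 and -0.00314), and the replicate block gave 3 higher and 12 lower genes. With the correction and the replicate block there were 3 higher and 8 lower. edgeR and DESeq2 were not run, because reads cannot be recovered from values rounded to whole numbers. Low counts limit what *Hdac8* and the meiotic genes can show.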

Other observations

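Genes of DNA replication and of entry into mitosis, whose products act in the same cycle as the SMC complexes and the APC/C, were read from 2 further lists. Of 16 S phase genes 9 were lower and 2 higher in *Tet iTKO* lines, and 9 and 1 after the correction. Over all genes tested 18.4% were lower and 16.4% higher, and 13.6% and 12.3% after it, against 56.3% and 12.5% of this list without the correction. *Pcna*, the sliding clamp, fell from 1236, 1253 and 1140 normalized counts in the *Ctrl* lines to 837, 778 and 698 (log2 fold change -0.65, SE 0.07, limma adjusted p = 3.3e-09, and -0.39 with adjusted p = 3.7e-05 after the correction). *Gins2*, a subunit of the replicative helicase, fell from 589, 544 and 615 to 334, 365 and 345 (-0.74, SE 0.09, adjusted p = 2.4e-08, and -0.94 with adjusted p = 2.1e-10). *Ung*, which removes uracil from DNA, fell from 1457, 1434 and 1465 to 1053, 1043 and 1021 (-0.48, SE 0.06, adjusted p = 6.1e-08, and -0.57 with adjusted p = 2.8e-09). In all 3 the groups did not overlap.

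Of 12 genes of the G2/M transition 6 were higher and 2 lower, and 2 and 1 after the correction, against the same shares over all genes, and the list's shares without the correction were 50.0% and 16.7%. *Cdk1*, the mitotic kinase, fell from 1513, 1307 and 1286 normalized counts to 977, 925 and 906 (log2 fold change -0.54, SE 0.07, limma adjusted p = 4.4e-08, and -0.52 with adjusted p = 1.2e-07 after the correction). *Mybl2*, which activates genes with CHR elements, rose from 3309, 3425 and 3658 to 3909, 3954 and 4116 (0.21, adjusted p = 0.00075, and -0.05 with adjusted p = 0.40 after the correction). *Foxm1*, which acts on the same genes, rose from 309, 286 and 300 to 338, 383 and 440 (0.37, adjusted p = 0.0057, and 0.16 with adjusted p = 0.29). The groups were apart in each of the 3 genes.

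Among 9 tested mESC markers 3 were higher and 4 lower, and 2 and 2 after the correction, against the same shares over all genes. *Dppa5a*, with means of 11230 and 8573 normalized counts the largest part of their sum, had a log2 fold change of -0.39, and of 0.07 after the correction. *Pou5f1* was lower before the correction (-0.29, limma adjusted p = 5.7e-06) and after it (-0.24, adjusted p = 3.9e-05). *Tfcp2l1* was called lower after it alone (-0.51, adjusted p = 8.8e-06). The 2 markers higher after the correction were *Epcam* (0.54, adjusted p = 2.1e-07) and *Esrrb* (0.16, adjusted p = 0.039). All 4 Y-linked markers read (*Ddx3y*, *Eif2s3y*, *Kdm5d* and *Uty*) were expressed in the 6 lines, with sums of 615 to 652 in *Ctrl* and 388 to 398 in *Tet iTKO* lines, and *Eif2s3y* was lower (log2 fold change -0.995, adjusted p = 5.6e-09).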
